A study of Mus musculus with 24 samples.

Results

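The comparison set the single treatments of this study directly against each other in infarcted mouse hearts: swimming under an empty vector against a miR-21 vector without swimming. Its members were the 6 heart libraries labelled AAV9-Empty with Swim and the 6 labelled AAV9-OE miR-21 with Control, and all genes of the count table were compared. They made up 12 of the 23 libraries in that table, out of 24 samples labelled in the series. All mice of the series were ovariectomised (OVX), all received an adeno-associated virus of serotype AAV9, either empty or made to overexpress miR-21, and all hearts were taken 3 weeks after myocardial infarction (MI). By the series' design text, swimming training preceded the infarction. The swimming group is therefore OVX, AAV9-Empty, Swim, MI-3W, and the miR-21 group is OVX, AAV9-OE miR-21, Control, MI-3W. The remaining libraries were 6 of the empty vector without swimming and 5 of the miR-21 vector with swimming, whose values are given below only for orientation. The labels name no strain, age, promoter of the vector or part of the heart sampled, and they do not say that each library came from its own mouse, so the p-values below measure the spread between these samples, which may be technical.

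Between these groups both the vector and the training differ, so a difference can lie on either side. AAV9 is a viral serotype that transduces mouse heart after systemic injection. MicroRNAs such as miR-21 guide Argonaute proteins to messenger RNAs whose 3′ untranslated regions pair with the seed, bases 2 to 8 of the miRNA, and lower the stability or translation of those messengers. Endurance training is known for adaptive growth of the heart and for changes in its fuel use, and a healing infarct holds dividing stromal cells, new vessels and activated fibroblasts that deposit matrix. In RNA from whole tissue, fewer cells of a type and less RNA per cell cannot be told apart.

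The mature miRNA that the vector is labelled to overexpress is shown because its seed defines the sites searched for below. RefSeq places it on the minus strand at chr11:86584120-86584141 of GRCm38.p6. Capitals mark the seed.
mmu-miR-21a-5p: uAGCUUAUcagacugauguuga
The reverse complement of that seed in DNA letters is ATAAGCT. Sites with this match in the 3′ untranslated regions of 3 called genes that are listed as published miR-21 targets are shown, read 5′ to 3′ on the gene's strand of GRCm38.p6 with the match in capitals. The matches start at bases 72, 77 and 3629 of the regions of Map2k3, Acat1 and Skp2. Map2k3 and Acat1 were lower and Skp2 was higher with swimming alone.
Map2k3: ttacctacagccATAAGCTactgccat
Acat1: gttatattcagcATAAGCTatttcatt
Skp2: tgactttgaagaATAAGCTatatgtac

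The 12 libraries held 12744241 to 14608507 counts each, with no 2 libraries identical among 66 pairs. Correlations of log2 CPM, the logarithm of counts scaled to a common library size, over 12672 genes ran from 0.9825 to 0.9919 within the swimming group, from 0.9759 to 0.9918 within the miR-21 group and from 0.9676 to 0.9834 between them. The first principal component, with 38.9% of the variance, placed all 6 swimming libraries between 10.7 and 30.6 and all 6 miR-21 libraries between -25.7 and -7.96. On the second, with 16.54%, miR-21 replicate 6 stood apart at -33.05. Cardiomyocyte genes were present at high level in every library, with Myh6, the adult ventricular myosin heavy chain, between 31540 and 47350 CPM. The count table holds 0 rows for the miR-21 precursor, so the targeted RNA itself could not be checked against the labels. The sample titles carry running numbers from separate series in the 2 groups, so whatever these series stand for cannot be told apart from the treatments within the 12 libraries. Of the other groups, only the one with both treatments has libraries of both series.

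Expression differed over a large part of the transcriptome by small amounts. Most of the 12 largest increases with swimming alone among the genes named by rule were in genes of cell division. Pydc3 and the predicted gene Gm41885, both described below, differed by more than these. Of 12921 genes tested, 3272 (25.3%) were called at a Benjamini-Hochberg adjusted p under 0.05 in edgeR's quasi-likelihood test. With swimming alone, 1653 genes (12.8%) were higher and 1619 (12.5%) were lower. The median log2 fold change was 0.41 among the genes called higher and -0.27 among those called lower, against 0.01 over all genes tested. Differences of at least 2-fold were mostly in the upward direction, with 186 genes higher and 33 lower, and 606 genes (4.69%) were called with a fold of at least 1.5. The 6 libraries of each group did not overlap in CPM for 10.4% of the genes, and 1324 of these were called. The 6 swimming libraries lay above all 17 other libraries for 56 genes (0.433%) and below all of them for 19 (0.147%), and the 6 miR-21 libraries did so for 8 (0.0619%) and 2 (0.0155%). All log2 fold changes below are swimming minus miR-21, with standard errors and n = 6 libraries in each group, and all CPM values are scaled by TMM.

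**Figure D1:**
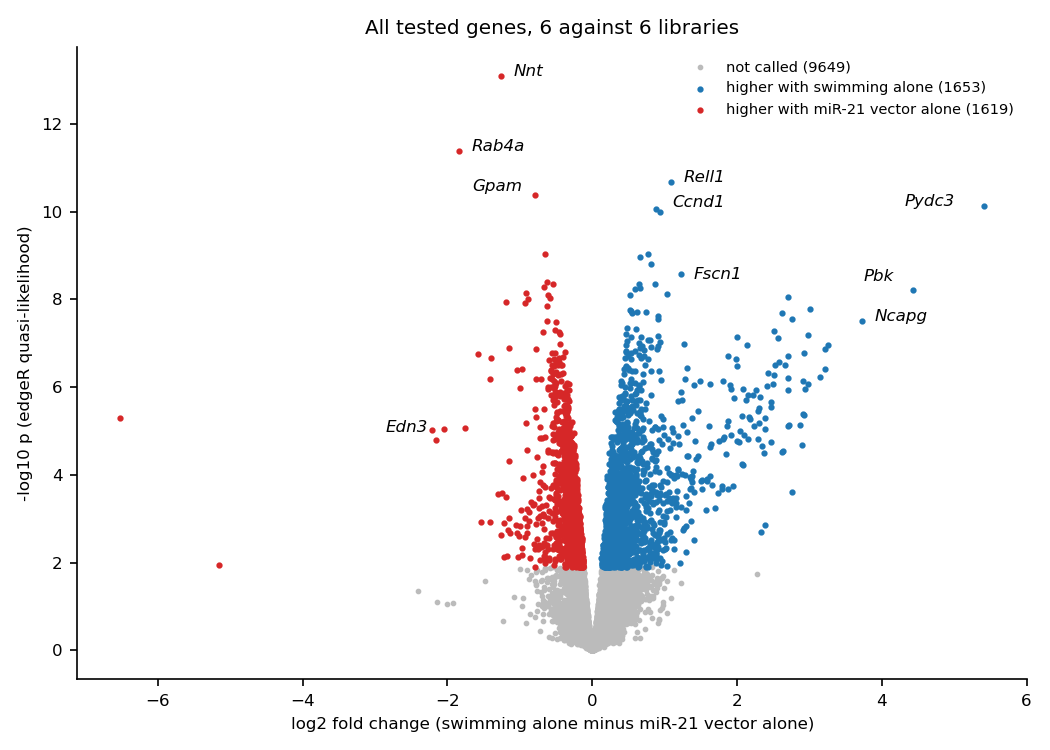
Each point is 1 of the 12921 genes tested, placed by log2 fold change (swimming alone minus miR-21 vector alone, x axis) and by -log10 of the edgeR p (y axis). Called genes are coloured by direction, 1653 to the right and 1619 to the left, and the points far to the right are mostly genes of cell division such as Pbk and Ncapg.

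The genes that separate chromosomes and split the cell formed the most uniform of the 37 gene lists. All 32 tested members of the mitosis and cytokinesis list were called higher with swimming alone, against 12.8% of all tested genes, and their median log2 fold change was 2.46. In 29 of the 32 the groups did not overlap, against 10.4% of all tested genes. Levels were low, and 18 of the 32 members reached the minimum of 0.725 CPM in all 6 swimming libraries but not in all 6 miR-21 libraries, 6 of them in no miR-21 library, so these passed the filter on low counts through the group in which they were high.
Pbk, a mitotic kinase outside that list, lay between 2.08 and 4.39 CPM (median 3.01) in the swimming libraries and between 0 and 0.355 CPM (median 0.116) in the miR-21 libraries. The difference of 4.44 ± 0.43 (adjusted p = 3.89e-06) rests on 265 counts in the 6 swimming libraries and 11 in the 6 miR-21 libraries. Ncapg, also outside the list, a subunit of the condensin complex that compacts chromosomes, ranged from 1.86 to 5.16 CPM (median 3.13) with swimming and from 0.0767 to 0.639 (median 0.187) with the miR-21 vector. Its log2 fold change was 3.73 ± 0.40 (adjusted p = 9.67e-06), and the groups did not overlap for either gene. Bub1, a kinase of the spindle checkpoint, stood at 1.63 to 5.51 CPM (median 2.82) against 0.169 to 0.498 (median 0.397), a difference of 2.98 ± 0.34 (adjusted p = 1.64e-05). Aurkb, the kinase of the chromosomal passenger complex, differed by 2.94 ± 0.39, and Kif18b, a kinesin of the mitotic spindle, by 3.22 ± 0.40. Fam64a, Melk, Kif15, Nek2, Neil3 and Ankle1 were also among the 12 largest increases, with log2 fold changes from 2.91 to 3.21. Ect2, which activates the GTPase that builds the cleavage furrow, and Ccnb2, cyclin B2, differed by 2.63 ± 0.28 and 2.52 ± 0.28. Mki67, a marker of cycling cells named here after its values were seen, lay at 15.2 to 54.1 CPM with swimming and at 2.30 to 6.75 with the miR-21 vector. In the empty vector group without swimming it lay between 5.47 and 14.02 CPM, and in the group with both treatments between 1.95 and 35.5.
The mean centred level of the list ranged over the swimming libraries from 0.34 in replicate 3 to 1.82 in replicate 2 on the log2 scale, all above the miR-21 libraries, which lay between -1.59 and -0.87. The empty vector libraries without swimming fell between -0.76 and 0.04. All 32 calls held in each of the 12 fits that left out 1 library. With all libraries in 1 fit and the title series as a covariate, 31 members were called higher and the median was 4.87. That covariate rests on the group with both treatments alone. There replicate 2 had a list level of 0.82 and the other libraries lay between -2.09 and -0.51, so the larger median may depend on that library, which was not tested.

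**Figure D2:**
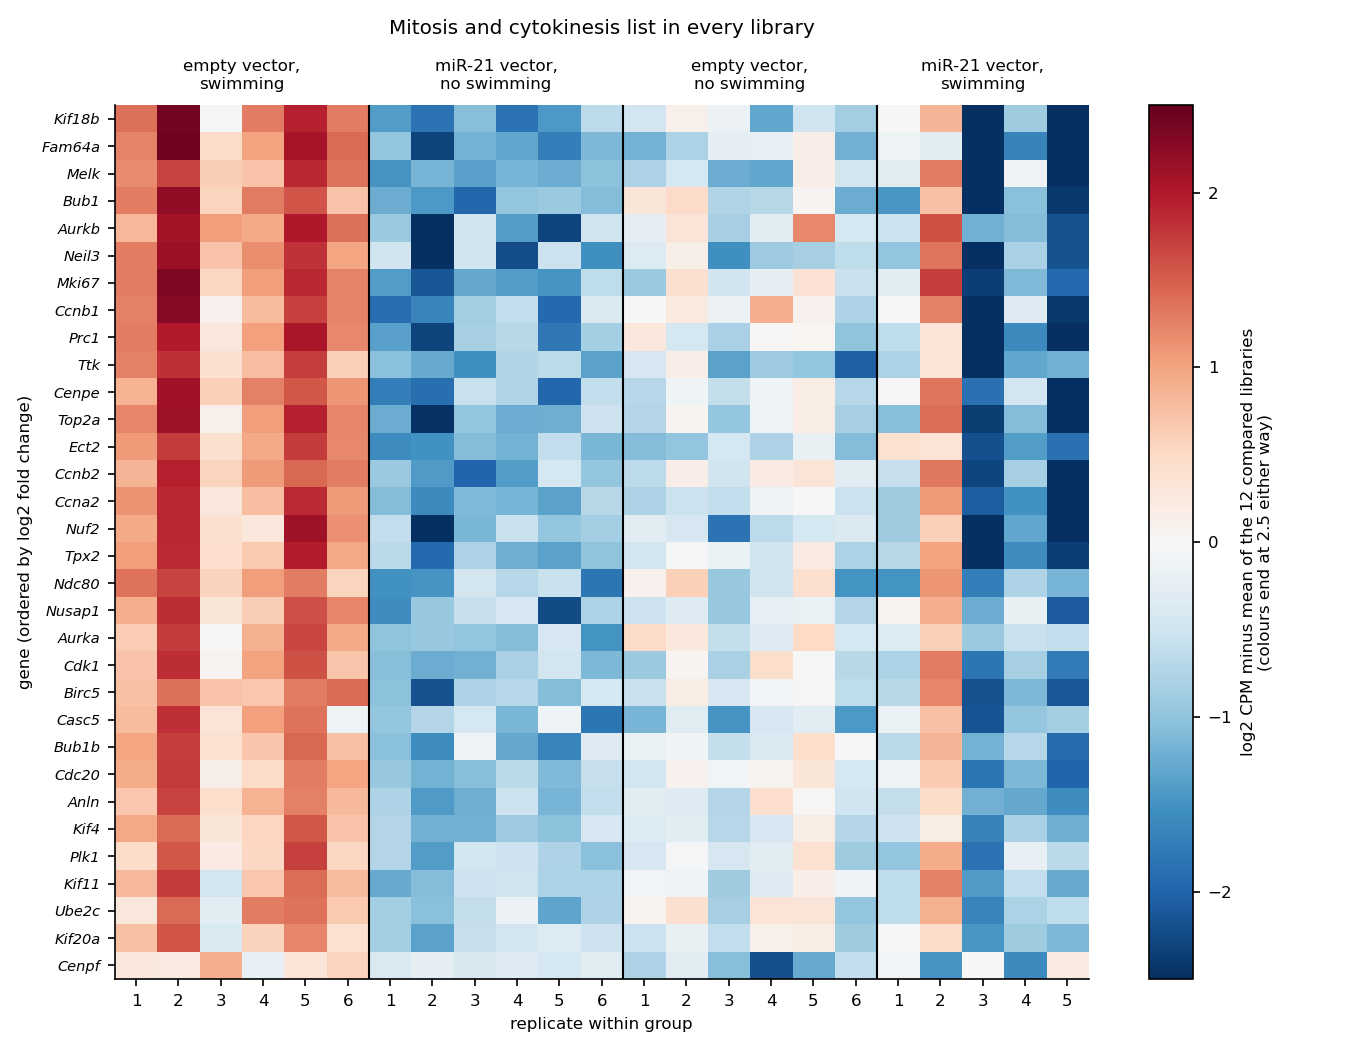
Rows are the 32 genes of the mitosis and cytokinesis list, ordered by log2 fold change, and columns are the 23 libraries by group and replicate. Colour gives log2 CPM minus the gene's mean over the 12 compared libraries, red above and blue below, and the 6 swimming libraries are red throughout most rows, with replicates 2 and 5 the deepest, while replicate 2 of the miR-21 vector with swimming is the reddest of the other groups.

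Genes that copy DNA were higher too, by smaller amounts. Of 28 tested members of the DNA replication list, 25 were called higher and 0 lower, against 12.8% of all tested genes called higher. Their median log2 fold change was 0.93. Of the 28, 6 reached the minimum of the filter in all 6 swimming libraries but not in all 6 miR-21 libraries, 1 of them in no miR-21 library, and so passed it through the group in which they were high. Mcm3, a subunit of the helicase that opens the double helix, lay at 11.6 to 14.7 CPM (median 12.6) with swimming and at 5.22 to 7.38 (median 6.18) with the miR-21 vector. It differed by 1.03 ± 0.10 (adjusted p = 4.36e-06), and Mcm6 of the same helicase by 0.91 ± 0.10, with no overlap for either. With the title series as a covariate the median was 1.60 and 21 members were called higher. Clspn, an adaptor of the replication checkpoint, differed by 2.70 ± 0.27 and Uhrf1, which couples DNA methylation to replication, by 1.62 ± 0.22. The list of cyclins and cell cycle inhibitors also holds their kinases and regulators such as Rb1 and Trp53. Among its 14 tested members, 6 were called higher and 5 lower, 78.6% in all against 25.3% of all tested genes. Their median log2 fold change was 0.04. Ccnd1, cyclin D1, which acts in the G1 phase, stood out with 113 to 161 CPM (median 134) against 69.1 to 77.1 (median 70.0), a difference of 0.93 ± 0.07 (adjusted p = 1.84e-07). Its 6 swimming libraries lay above all 17 others, where it reached at most 96.4 CPM. Cdkn2c, an inhibitor of the kinases that cyclin D activates, was higher by 0.62 ± 0.10, Cdk6 by 0.53 ± 0.09 and Ccnd3 by 0.24 ± 0.05. These and Ccnd1 are named as the called members with the smallest p-values, and the 5 lower members are not named.

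The promoters of Kif18b and Ccnb2 are shown because genes of mitosis are known for a pair of promoter elements, the CCAAT box bound by NF-Y and the cell cycle homology region, whose core is TTTGAA. Each window runs from 250 bases before to 50 bases after the RefSeq start in GRCm38.p6, 5′ to 3′ on the gene's strand, with matches to CCAAT or TTTGAA on either strand in capitals. Kif18b lies at chr11:102925075-102925374 on the minus strand, with 2 CCAAT and 1 TTTGAA matches.
Kif18b: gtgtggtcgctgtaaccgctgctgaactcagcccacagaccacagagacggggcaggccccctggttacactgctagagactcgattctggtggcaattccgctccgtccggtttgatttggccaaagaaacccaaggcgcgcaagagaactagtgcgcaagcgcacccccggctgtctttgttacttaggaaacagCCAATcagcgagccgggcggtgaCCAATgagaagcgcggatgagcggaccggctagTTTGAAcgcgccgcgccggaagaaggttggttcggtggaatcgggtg
Ccnb2 lies at chr9:70421505-70421804 on the minus strand, with 3 CCAAT and 2 TTTGAA matches.
Ccnb2: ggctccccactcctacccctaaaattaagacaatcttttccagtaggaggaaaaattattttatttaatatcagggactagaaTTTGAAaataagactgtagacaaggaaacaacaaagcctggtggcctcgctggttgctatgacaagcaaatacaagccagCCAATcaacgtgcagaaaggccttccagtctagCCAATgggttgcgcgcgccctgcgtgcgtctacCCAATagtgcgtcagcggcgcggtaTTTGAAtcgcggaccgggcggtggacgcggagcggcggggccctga
The 29 windows of the 27 mitosis genes that had one held CCAAT in 72.4%, TTTGAA in 72.4% and both in 62.1%. Over all 32851 windows the shares were 37.4%, 17.9% and 7.0%. Windows of the DNA replication list held CCAAT in 18 of 30 and TTTGAA in 3 of 30. The motifs do not overlap each other, and a match describes the sequence without showing a bound factor.

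Interferon-stimulated genes were higher with swimming alone as a broad set. Of 30 tested members, 24 were called higher and 0 lower, against 12.8% of all tested genes called higher. Their median log2 fold change was 0.50. In 12 the groups did not overlap, against 10.4% of all tested genes. Ifit3, which binds viral RNA complexes, lay at 21.1 to 28.4 CPM (median 24.9) with swimming and at 15.3 to 17.4 (median 16.7) with the miR-21 vector. The difference was 0.59 ± 0.07 (adjusted p = 2.48e-05). Bst2, tetherin, which holds budding viruses at the cell surface, ranged from 33.9 to 45.5 CPM (median 39.2) against 19.6 to 28.3 (median 24.1), a difference of 0.71 ± 0.09 (adjusted p = 2.79e-05). Irf9, the DNA-binding part of the interferon signalling complex, was higher by 0.52 ± 0.08, with groups that overlapped. The empty vector group without swimming had Ifit3 at 14.6 to 26.9 CPM and Bst2 at 24.6 to 40.6 CPM. With all 23 libraries in 1 fit, 14 members were called higher, and Ifit3 was no longer among the calls. With the title series as a covariate 19 were called higher and the median was 1.12.
Pydc3, a pyrin-domain member of the interferon-inducible Ifi200 family, had the largest log2 fold change of all genes named by rule, 5.41 ± 0.40 (adjusted p = 1.84e-07). It lay between 2.64 and 4.44 CPM in the swimming libraries and between 0 and 0.232 in the miR-21 libraries, from 299 and 6 counts, and it stayed at or below 0.601 CPM in all other libraries. The family has near-identical copies among which reads can be split, so its level is uncertain.

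The promoters of Ifit3 and Bst2 are shown because they hold matches to the core of the interferon-stimulated response element, GAAA repeated after any 2 bases, given in capitals on either strand. Ifit3 lies at chr19:34583279-34583578 on the plus strand, with 2 matches.
Ifit3: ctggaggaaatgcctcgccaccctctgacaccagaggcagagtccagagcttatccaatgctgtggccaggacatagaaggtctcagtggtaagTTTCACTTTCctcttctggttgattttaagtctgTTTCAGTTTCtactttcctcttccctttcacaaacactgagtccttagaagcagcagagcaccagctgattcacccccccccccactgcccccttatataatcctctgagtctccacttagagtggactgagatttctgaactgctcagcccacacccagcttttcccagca
Bst2 lies at chr8:71537423-71537722 on the minus strand, with 2 matches that overlap.
Bst2: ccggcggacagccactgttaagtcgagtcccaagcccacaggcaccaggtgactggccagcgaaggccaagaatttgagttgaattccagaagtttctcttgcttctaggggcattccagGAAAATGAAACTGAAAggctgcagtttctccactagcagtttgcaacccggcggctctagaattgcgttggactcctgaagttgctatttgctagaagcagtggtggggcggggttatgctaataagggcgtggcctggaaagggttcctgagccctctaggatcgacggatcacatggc
Of 25 windows of the interferon list, 52.0% held the motif, against 3.4% of all windows.

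Sox7, the transcription factor named with miR-21 in the title of the series and a member of the SoxF family of endothelial regulators, was higher with swimming alone. It lay at 42.0 to 69.6 CPM (median 44.2) in the swimming libraries and at 24.4 to 40.8 (median 31.5) in the miR-21 libraries, which did not overlap. The log2 fold change was 0.61 ± 0.15 (adjusted p = 0.00979), and the call was lost when all libraries were fitted together with the number series of the titles as a covariate, where the difference was 0.66 with an adjusted p of 0.188. The empty vector libraries without swimming held 22.8 to 42.6 CPM, a range close to that of the miR-21 libraries, and those with both treatments 20.3 to 35.0. Its SoxF relatives gave values of -0.10 ± 0.11 (Sox17) and 0.15 ± 0.12 (Sox18), neither of which passed the test.
Of 28 tested SoxF, Notch and VEGF partners, 10 were called higher and 0 lower, against 12.8% of all tested genes called higher. With all libraries in 1 fit 5 were called higher, and with the title series as a covariate also 5. Apln, apelin, a peptide secreted by sprouting endothelium, had 16.1 to 31.3 CPM (median 26.9) against 8.88 to 12.99 (median 11.3), a difference of 1.19 ± 0.15 (adjusted p = 0.000116) without overlap. Erg, a transcription factor that maintains endothelial identity, was higher by 0.54 ± 0.08, Notch4 by 0.44 ± 0.09 and Ets1 by 0.43 ± 0.09. Among 26 endothelial markers, 10 were called higher and 1 lower, 42.3% in all against 25.3% of all tested genes. The lower one was the fatty acid transporter Cd36, at -0.30 ± 0.07, named after its value was seen. Those higher included Icam2, an adhesion molecule, at 0.70 ± 0.10, Nos3, the endothelial nitric oxide synthase, at 0.50 ± 0.08 and Rasip1, needed for vessel lumens, at 0.46 ± 0.06. The calls of Notch4 and Nos3 were lost with the title series as a covariate. Of the endothelial markers 8 were called higher with all libraries in 1 fit, and 5 with that covariate. The summed level of the 26 markers overlapped, at 5377 to 6047 CPM with swimming and 5186 to 6029 with the miR-21 vector. Of 18 pericyte and smooth muscle markers, 8 were called higher and 0 lower, against 12.8% of all tested genes called higher. With all libraries in 1 fit 3 of them were called higher, and with the title series as a covariate 4. Mcam, an adhesion molecule of pericytes, lay at 102 to 149 CPM (median 123) against 63.6 to 74.9 (median 71.9) and differed by 0.87 ± 0.08 (adjusted p = 3.63e-06). Mylk, the kinase that triggers smooth muscle contraction, lay at 39.7 to 46.3 CPM against 28.2 to 31.5 and differed by 0.54 ± 0.06, with the miR-21 libraries below all 17 others.

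**Figure D3:**
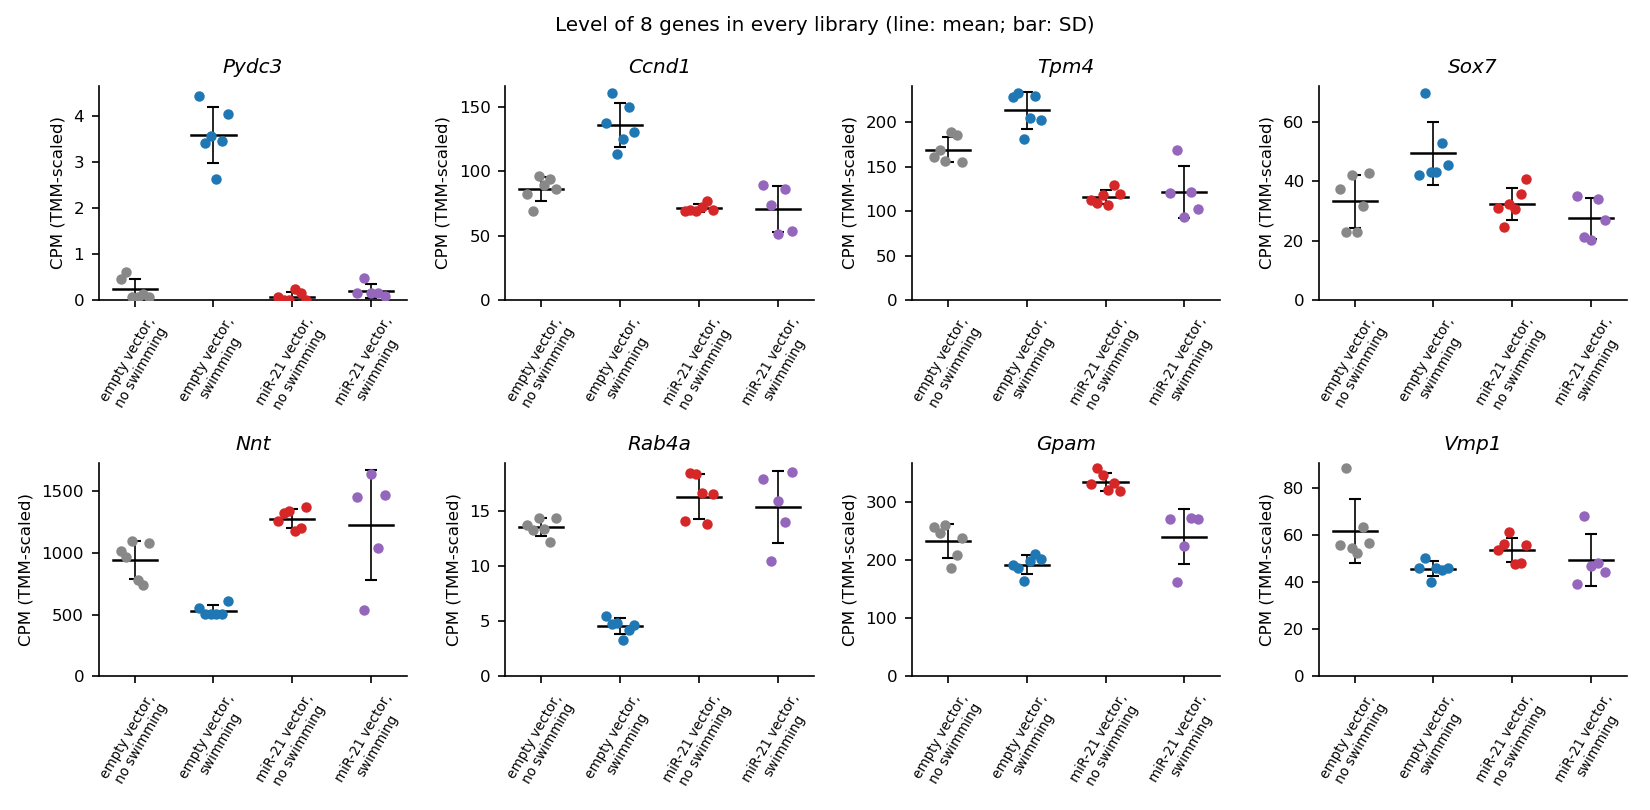
Every point is the CPM of 1 library for 8 genes, by group, with the group mean as a line and the SD as a bar. The swimming libraries stand above all others for Pydc3 and Ccnd1 and below all others for Rab4a, and the miR-21 libraries stand above all others for Gpam.

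Genes of the extracellular matrix were higher with swimming alone, unevenly over the libraries. Of 37 tested members of the collagen and matrix list, 18 were called higher and 1 lower, against 12.8% of all tested genes called higher. Their median log2 fold change was 0.64. Emilin1, a glycoprotein of elastic fibres, lay at 56.3 to 74.8 CPM (median 66.9) against 34.2 to 52.2 (median 42.0), without overlap, and differed by 0.66 ± 0.10 (adjusted p = 0.000166). Col18a1, a basement membrane collagen, differed by 0.83 ± 0.14 and Col6a1, a chain of microfibrillar collagen, by 0.85 ± 0.16. The member called lower was P4ha1, which hydroxylates prolines of new collagen, at -0.56 ± 0.09, a call lost with the title series as a covariate. The main fibrillar collagens gave 0.82 ± 0.30 for Col1a1 (adjusted p = 0.0688) and 0.86 ± 0.34 for Col3a1 (adjusted p = 0.0893), which did not pass the test.
Of 19 resident fibroblast markers, 9 were called higher and 0 lower, against 12.8% of all tested genes called higher. They included Cd248 at 0.70 ± 0.11 and Ddr2, a collagen receptor, at 0.45 ± 0.06. Of 27 activated fibroblast markers, 5 were called higher and 1 lower, 22.2% in all against 25.3% of all tested genes. The lower one was Wisp2, at -1.02 ± 0.31, named after its value was seen and lost in most fits that left out 1 library. Postn, periostin, secreted by activated fibroblasts, ranged from 130 to 473 CPM (median 182) with swimming and from 60.4 to 143 (median 91.2) with the miR-21 vector, a difference of 1.40 ± 0.36 (adjusted p = 0.0179) with overlap. Adam12, a metalloprotease of activated stroma, differed by 1.38 ± 0.29, Meox1 by 1.08 ± 0.26 and Loxl2, which cross-links collagen, by 1.03 ± 0.20. The empty vector libraries without swimming held 152 to 496 CPM of Postn, above the miR-21 libraries and across the swimming range. Without miR-21 replicate 6 the activated fibroblast list had 8 members called higher. With all libraries in 1 fit the matrix list had 7 members called higher and the activated fibroblast list 1, with the calls of Postn, Adam12, Meox1, Cd248 and Col18a1 lost. With the title series as a covariate the counts were 15 and 5, and the medians rose from 0.64 to 1.77 and from 0.43 to 1.63, while that of the resident fibroblast list rose from 0.30 to 0.86. The summed activated fibroblast markers lay at 696 to 2007 CPM with swimming, highest in replicate 4, and at 565 to 993 with the miR-21 vector. In the empty vector libraries without swimming they lay at 972.5 to 3696 CPM.

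Genes of the contracting cardiomyocyte were lower with swimming alone, each by a small amount. Of 23 sarcomere genes 12 were called lower and 0 higher, against 12.5% of all tested genes, with a median log2 fold change of -0.19. Myh6 lay at 31540 to 40610 CPM (median 37640) with swimming and at 40870 to 47350 (median 43570) with the miR-21 vector, a difference of -0.24 ± 0.07 (adjusted p = 0.0125) without overlap. Ryr2, the calcium release channel of the sarcoplasmic reticulum, held 1080 to 1647 CPM (median 1339) against 1720 to 1968 (median 1881), a difference of -0.47 ± 0.08 (adjusted p = 0.000409). Atp2a2, the calcium pump SERCA2, differed by -0.45 ± 0.08 and Ldb3, a protein of the Z-disc, by -0.44 ± 0.06, both without overlap.
Of 27 calcium and ion channel genes, 11 were called lower and 2 higher, 48.1% in all against 25.3% of all tested genes. The higher ones were the potassium channels Kcna5 at 0.69 ± 0.18 and Kcnd2 at 0.49 ± 0.12, named after their values were seen. Hcn4, the pacemaker channel, lay at 5.01 to 8.33 CPM (median 6.40) against 9.82 to 15.9 (median 13.4), a difference of -1.04 ± 0.14 (adjusted p = 4.35e-05). Scn4a, a sodium channel best known from skeletal muscle, lay at 22.8 to 33.9 CPM (median 30.6) against 47.9 to 73.7 (median 58.0), without overlap (adjusted p = 7.53e-05). Neb, a thin filament protein, at -1.41 ± 0.17 and Casq1, the calcium store of skeletal muscle, at -1.24 ± 0.24 were among the 12 largest decreases. The summed skeletal muscle markers lay at 3097 to 4114 CPM with swimming and 3284 to 4942 with the miR-21 vector, and their part in these differences was not tested. Of 19 tested cardiac stress genes, 2 were called higher and 2 lower, 21.1% in all against 25.3% of all tested genes. Actn1 and Hmox1 were the higher ones, and Flnc and Myh6 the lower. The call of Hmox1 was lost on leaving out 1 of several libraries. Nppa and Nppb, natriuretic peptides, and Myh7, named after their values were seen, did not pass the test. They gave -0.36 ± 0.65, -0.45 ± 0.29 and -0.39 ± 0.70. With all libraries in 1 fit 2 sarcomere genes and 5 channel genes were called lower, and the calls of Myh6 and Atp2a2 were lost. With the title series as a covariate 0 of either list were called lower, nor were Neb and Casq1, while the medians were larger, at -0.45 for the sarcomere and -0.46 for the channels, and the difference of Neb was -1.24.

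Of 32 genes of fatty acid oxidation, the main fuel of the heart, 14 were called lower and 1 higher, with a median log2 fold change of -0.18, against 12.5% of all tested genes called lower. Ucp3, an uncoupling protein of muscle mitochondria, lay at 21.9 to 42.2 CPM (median 29.5) against 50.2 to 99.1 (median 64.8), without overlap, and differed by -1.15 ± 0.18 (adjusted p = 0.000926). Cpt2 and Cpt1b, which move long-chain fatty acids into mitochondria, differed by -0.44 ± 0.06 and -0.36 ± 0.05. Respiratory chain genes had 3 of 38 called lower (7.89%) and 0 higher, a share of lower calls below that of all tested genes. That count was 6 without swimming replicate 6 and 5 without miR-21 replicate 5. Of 27 glycolysis and hypoxia genes, 6 were called lower and 1 higher, with Bnip3, a mitophagy receptor, at -0.58 ± 0.08 and Pfkl at -0.26 ± 0.05, a total of 25.9% called that was near the 25.3% of all tested genes. Among 25 regulators linked to exercise, 8 were called lower and 3 higher, including Esrrg and Esrrb, nuclear receptors that drive mitochondrial genes, at -0.40 ± 0.07 and -0.32 ± 0.07, and Fndc5 at -0.25 ± 0.06. In all 44.0% of these regulators were called, and the 3 higher calls became 1 without miR-21 replicate 3. Cebpb, whose fall is known from trained hearts, was higher by 0.47 ± 0.11. With all libraries in 1 fit 3 fatty acid oxidation genes were called lower, and with the title series as a covariate 10, with a median of -0.64. The calls of Esrrg, Esrrb, Fndc5 and Cebpb were lost in both of these fits, and that of Cpt1b in the first.

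**Figure D4:**
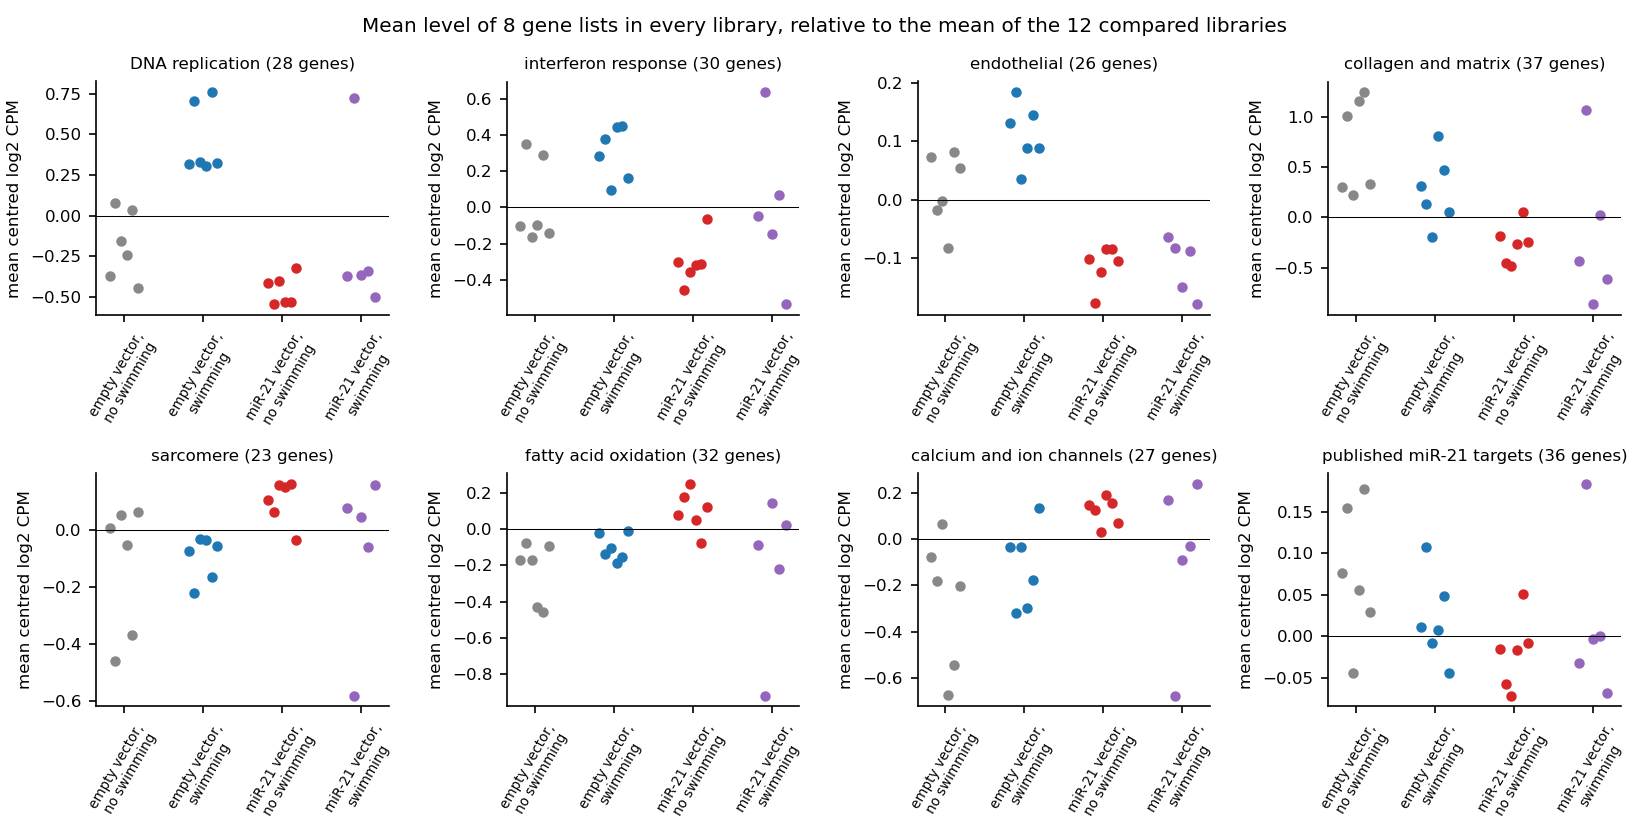
Each point is 1 library's mean centred log2 CPM over the tested genes of a list, for 8 lists and 4 groups. DNA replication, interferon and endothelial levels do not overlap between the swimming and the miR-21 libraries, while matrix, sarcomere, fatty acid oxidation, channel and miR-21 target levels do.

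The decrease with the smallest p was that of Nnt, the mitochondrial transhydrogenase that makes NADPH, which lay at 504 to 615 CPM (median 508) with swimming and at 1183 to 1373 (median 1290) with the miR-21 vector, a difference of -1.26 ± 0.06 (adjusted p = 1.03e-09). Nnt is known to carry a deletion in C57BL/6J mice, and the labels name no strain. The empty vector libraries without swimming held 739 to 1097 CPM, and those with both treatments 535 to 1642. Rab4a, a GTPase of endosome recycling, lay at 3.34 to 5.51 CPM (median 4.70) against 13.8 to 18.4 (median 16.6) and differed by -1.84 ± 0.12 (adjusted p = 2.69e-08). It held at least 10.5 CPM in all 17 other libraries, including the 3 libraries with both treatments whose title numbers fall in the same series as those of the swimming group. What part the title series has in the difference of Rab4a was not tested. Gpam, which starts triglyceride synthesis, lay at 165 to 211 CPM (median 196) against 319 to 359 (median 333) and differed by -0.80 ± 0.06 (adjusted p = 1.37e-07). Its 6 miR-21 libraries were above all 17 others.
Cpeb2, Camk2b, Slco3a1 and Ppip5k1 were lower, at -0.67 ± 0.07, -0.91 ± 0.09, -0.63 ± 0.06 and -0.61 ± 0.06, each without overlap. Edn3, the peptide endothelin 3, had the largest decrease among the genes named by rule, which leaves out predicted genes with Gm numbers, -2.16 ± 0.33, from 0.644 to 2.71 CPM against 3.12 to 11.4. Sh3gl2, an endophilin of vesicle uptake, and Slc9a3, a sodium-proton exchanger, differed by -1.76 ± 0.29 and -1.58 ± 0.19. Also among the 12 largest decreases were Tbx15 at -1.54 ± 0.39, Lgi1 at -1.39 ± 0.17, Lrrc52 at -1.31 ± 0.29, Scd4 at -1.25 ± 0.31 and Shisa6 at -1.22 ± 0.32. Asap3 at -0.65 ± 0.06, Narf at -0.55 ± 0.05 and Tnfaip2 at -0.58 ± 0.06 were among the 10 decreases with the smallest p-values. The calls of Edn3, Slc9a3, Tbx15, Lgi1, Scd4, Shisa6, Asap3 and Tnfaip2 were lost with the title series as a covariate.
On the upward side the smallest p-values belonged to Rell1 at 1.09 ± 0.08 (adjusted p = 8.85e-08), Tpm4, a cytoskeletal tropomyosin, at 0.88 ± 0.07 and Fscn1, which bundles actin, at 1.22 ± 0.10. Tpm4 lay at 181 to 233 CPM (median 217) against 107 to 129 (median 116), and the empty vector libraries without swimming held 155 to 189. Plat, tissue plasminogen activator, Maged2, Matn2 and Tuba1a differed by 0.81 ± 0.07, 0.77 ± 0.07, 0.66 ± 0.06 and 0.65 ± 0.06, all without overlap.

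Published miR-21 targets were called in both directions, and no test of the list as a group was run. Of 36 tested, 5 were called higher and 6 lower, 30.6% in all against 25.3% of all tested genes. Their median log2 fold change was 0.05, against 0.01 over all genes tested. The list contains Sox7, which the series' title names, and was chosen with earlier results of these data known. Marcks, a substrate of protein kinase C, was higher by 0.45 ± 0.08 and Mmp2, a gelatinase, by 0.60 ± 0.13. Map2k3, a kinase upstream of p38, was lower by 0.21 on the log2 scale (-0.21 ± 0.05) and Acat1, a mitochondrial thiolase, by 0.23 (-0.23 ± 0.06). The calls of Mmp2, Map2k3 and Acat1 were lost with all libraries in 1 fit. Of the textbook targets, Pdcd4 gave 0.11 ± 0.09, Spry1 0.08 ± 0.14 and Timp3 0.11 ± 0.12, none past the test. Reck, another of them with a seed match, was called. Of the 11 called targets, 6 hold the seed match in their 3′ untranslated region, 2 of them higher and 4 lower with swimming alone, and 5 do not, 3 higher and 2 lower. The regions read for Sox7 and Vmp1 held no such match.
Over all tested genes with a 3′ untranslated region, the 976 with a 7-base match had 11.58% called higher and 16.39% lower, with a median log2 fold change of -0.01. The 11456 without a match had 13.08% called higher and 12.35% lower, with a median of 0.01. Genes with a match have longer regions, with a median of 2858 against 1112 bases. Vmp1, whose gene overlaps that of miR-21, lay at 40.2 to 50.2 CPM (median 45.9) with swimming and at 47.6 to 61.1 (median 54.7) with the miR-21 vector, a difference of -0.23 ± 0.07 (adjusted p = 0.0151) with overlap, and the call was lost in both fits of all libraries.

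Marker lists of other cell types are given by their counts and summed levels, beside the 25.3% of all tested genes that were called. Of 26 macrophage markers 1 was called, Folr2, at 0.65 ± 0.21, and leaving out single libraries gave between 0 and 5 calls. Their summed level lay at 671 to 1269 CPM with swimming and at 530 to 1433 with the miR-21 vector. Neutrophil and B cell markers had 0 calls of 6 each in edgeR, with 1 and 2 at an unadjusted p under 0.05 and 1 and 0 called by DESeq2. Antigen presentation genes had 0 of 20 and erythrocyte markers 0 of 8, with 1 and 2 at an unadjusted p under 0.05 and 1 and 0 by DESeq2. T and NK cell markers had 1 of 4, Ms4a4b, lost on leaving out 1 of several libraries. Nerve and Schwann cell markers had 3 called higher of 13 (23.1%), and their summed level did not overlap, at 119 to 151 CPM against 97.5 to 111. Adipocyte markers had 5 called lower and 1 higher of 10, a share above the 25.3% of all tested genes. The 5 lower calls became 2 without swimming replicate 2 and 3 without swimming replicate 4 or 5 or miR-21 replicate 4 or 6. Adipoq, which defines fat cells, lay at no more than 0.710 CPM in the 12 libraries. Pnpla2, the fat-splitting lipase that cardiomyocytes also express, was lower by 0.37 on the log2 scale (-0.37 ± 0.06), and Scd1, a desaturase, was higher by 0.62 ± 0.11, a call lost with all libraries in 1 fit. Mesothelial, atrial and lymphatic lists had 2 of 7, 3 of 16 and 3 of 15 called, and the 3 atrial calls, all lower, became 1 without swimming replicate 2. Prg4, lubricin, a mesothelial marker, lay at 12.2 to 18.9 CPM against 25.6 to 31.6 and differed by -0.88 ± 0.09 (adjusted p = 4.6e-06). This call was lost with all libraries in 1 fit, and the direction turned with the title series as a covariate.
The counts of the lists that follow are also to be read beside the 25.3% of all tested genes that were called. Of the signalling lists, TGF-beta and BMP genes had 2 of 25 called (8.0%), with Tgfb1 higher by 0.46 ± 0.10 and Smad2 by 0.18 ± 0.05. The call of Smad2 was lost without swimming replicate 2 or miR-21 replicate 5. Wnt genes had 1 of 19 called (5.26%), Wif1, a secreted Wnt inhibitor, higher by 1.79 ± 0.35, a call lost with the title series as a covariate. Circadian clock genes had 5 of 22 called (22.7%), including Npas2 at 0.66 ± 0.17 and Nfil3 at -0.44 ± 0.12. The 4 lower calls among them became 2 without swimming replicate 1 or miR-21 replicate 1. Heat shock and unfolded protein genes had 8 of 23 called (34.8%, against 25.3% of all tested genes), 4 in each direction. Creld2 was higher by 0.42 ± 0.08 and Hsph1, a chaperone, was lower, at -0.74 ± 0.14. The 4 heat shock calls on the lower side became 1 without swimming replicate 2, 3 or 5 or miR-21 replicate 1, and 2 without swimming replicate 1 or miR-21 replicate 2. Immediate early genes had 1 of 19 called (5.26%), Klf6, at 0.40 ± 0.09. Cytokines had 4 of 20, Cxcl12 at -0.38 ± 0.08, which was lost in the fit of all libraries, and Cxcl14, Ccl12 and Cxcl9, each lost on leaving out 1 of several libraries. Steroid hormone linked genes had 3 of 18 called (16.7%), all lower. Pdk4, a brake on glucose oxidation, stood at -0.79 ± 0.22, and the calls of Nr3c1 and Nr3c2 were each lost on leaving out 1 of several libraries. The estrogen receptor gene Esr1 lay under the filter at 0.418 to 1.19 CPM.

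**Figure D5:**
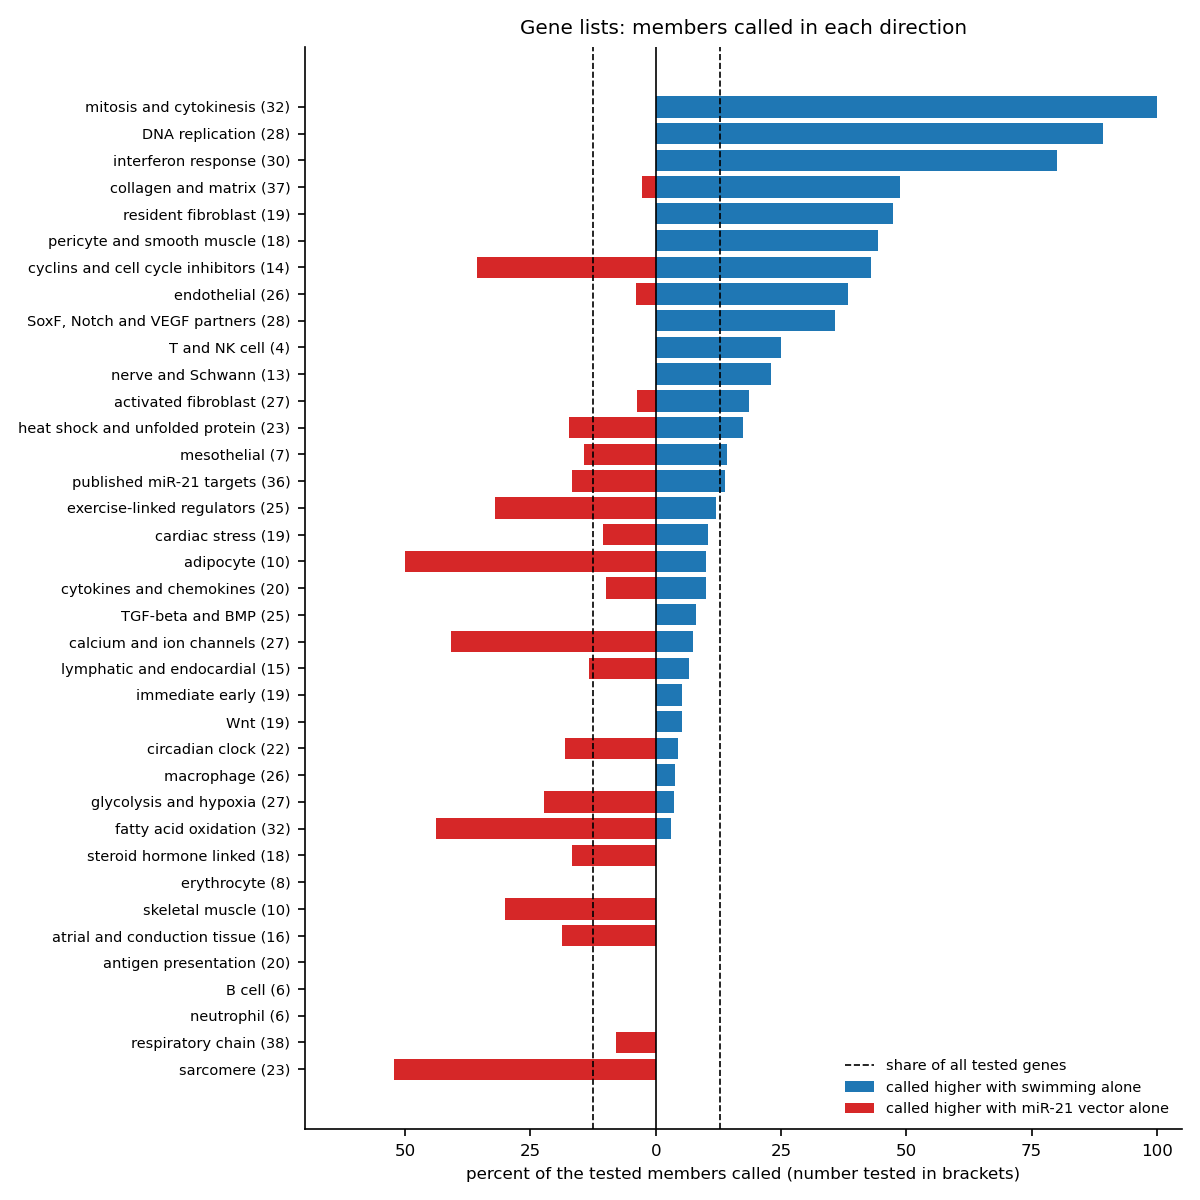
Bars give the percent of tested members called in each direction for 37 gene lists, higher with swimming alone to the right and higher with the miR-21 vector alone to the left, with the share of all tested genes as dashed lines at 12.8% and 12.5%. Mitosis, DNA replication and interferon lists reach farthest right, and sarcomere, channel and fatty acid oxidation lists reach far to the left.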

How the data were processed

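Hearts were profiled by stranded poly(A) RNA sequencing from TRIzol-extracted RNA, per the labels' protocols, and the submitters' processing notes name the build GRCm39. Neither the aligner and counting program nor the use of strand is given in the sources used here. The deposited values are raw counts per gene for 21878 genes, and the authors' FPKM values and comparisons were not used. The labels give the groups. 1 sample, miR-21 swimming replicate 6, has no count column and was not analysed here.

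Counts were filtered (filterByExpr: at least 0.725 CPM in 6 libraries), TMM-scaled and tested with edgeR's quasi-likelihood test (edgeR 4.0.16, R 4.3.3) on the 12 libraries, with Benjamini-Hochberg adjustment over all 12921 genes. The standard error is the absolute log2 fold change divided by the square root of F. The script was tested on simulated data. Printed CPM values are scaled over all 23 libraries. Genes named by rule are Sox7 and Vmp1, the 12 largest changes and 10 smallest p-values in each direction (at least 1 CPM, at least 5 of 6 libraries of each group on its side, no Gm or Rik names), and up to 4 called genes from each of 37 lists; other genes were named after their values were seen. Some genes that the rule selects are not reported here. The members and lists were chosen with earlier results of these data known, and lists share members. Seed matches were searched in the longest 3′ untranslated region of each gene in GENCODE (at least 30 bases, 12432 of 12921 tested genes matched), and promoters and miRNA sequences are RefSeq's on GRCm38.p6 (9910 tested genes matched by symbol). Alternatives changed scaling (RLE, upper quartile), the filter, the libraries fitted, a minimum fold of 1.5, the tool (DESeq2 1.42.0, limma 3.58.1 voom) and left out each library in turn.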

Additional observations from a re-analysis of the deposited data

Results flagged for a closer look

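Summed lymphatic and endocardial markers were low in miR-21 control replicate 3, at 472 CPM, where the other 5 libraries of the group lay between 544 and 593 CPM. On the log2 scale the gap to the nearest library passed Dixon's 95% limit for 6 samples. This was 1 of 82 groups of 6 libraries examined in this way, and chance flags about 1 in 20. Without this library Flt4, a lymphatic receptor, was no longer called.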

How the results depend on the processing

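The count of 3272 called genes (1653 higher, 1619 lower) became 1453 (829 and 624) with all 23 libraries in the fit and 1520 (939 and 581) when that fit also had a term for the title number series, with 1431 and 1267 genes shared with the main calls. Requiring a fold of at least 1.5 left 606 (484 and 122). The cause of these changes was not tested. Leaving out 1 library gave 2657 to 3504 calls. Other scalings, filters and tools gave 3130 to 3830, and upper quartile scaling put 56.1% of calls on the higher side against 50.5%. Among the genes followed through the alternatives, directions reversed only with the title number term. The log2 fold changes became 1.19 for Lcn2, 2.48 for Cd79a, 0.074 for Cxcl12, 0.69 for Prg4 and 1.56 for Myl4. Of these, Lcn2 and Cd79a were not called before. Of 148 called genes followed in this way, 49 kept their call under all 21 alternatives. The call was lost by 64 under the minimum fold, 52 with all libraries, 57 with the title number term and 17 on leaving out at least 1 library. The genes followed are those that the rule selects and some others. Not all of them are reported here, and some called genes reported here, such as Kcna5 and Cd36, are not among them. The title number series can be estimated only from the group with both treatments, from replicates 1 and 2 against replicates 3, 4 and 5. Replicate 2 of that group stood apart, with summed B cell markers at 636.9 CPM against 8.78 to 14.05 in its other libraries. Replicates 2 and 5 of the empty vector without swimming, at 178.4 and 113.9 CPM, also entered both fits of all libraries. How far the values and reversals in these fits rest on such libraries was not tested. No paired analysis was possible because the labels give no replicate numbers that the 2 groups share. Low counts limit the fold changes of genes of cell division, since several had under 30 counts in the 6 miR-21 libraries together.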

Other observations

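Genes of this paragraph were chosen after their values were seen. Ide, the insulin-degrading enzyme, fell into separate levels within the swimming group, at 182, 137 and 188 CPM in replicates 3, 4 and 6 and at 86.9, 82.1 and 83.7 CPM in replicates 1, 2 and 5. All 17 other libraries lay between 76.5 and 112 CPM. Between the compared groups Ide gave a log2 fold change of 0.45 ± 0.23 and was not called (edgeR, adjusted p = 0.189).

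The predicted gene Gm41885 had 6 counts in the 6 swimming libraries together and 575, 1087 and 594 in the miR-21, the empty vector and the combined groups. Its log2 fold change of -6.52 ± 0.81 (edgeR, adjusted p = 0.000207) compares those counts. Wdfy1, an endosomal adaptor, lay at 14.0 to 25.2 CPM in the swimming libraries and at 30.1 to 39.6 CPM in all others, a difference of -0.97 ± 0.12 (edgeR, adjusted p = 4.26e-05). Mest, an imprinted gene of growing tissue, lay at 26.9 to 66.8 CPM in the swimming libraries and at 3.67 to 17.7 CPM in all others. Its log2 fold change was 1.91 ± 0.25 (edgeR, adjusted p = 0.000371). Cav1 and Ptrf, which build caveolae, lay at 505 to 707 and 427 to 476 CPM in the swimming libraries and at no more than 454 and 409 CPM elsewhere, with log2 fold changes of 0.59 ± 0.08 and 0.32 ± 0.05.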
